A study of Mus musculus with 6 samples.

Results

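The genes described here are 9 homeobox genes: Hoxa2, Hoxa3, Hoxa4, Hoxa5, Hoxa6, Hoxa7, Hoxa9 and Hoxa10, which lie side by side on chromosome 6, and Hoxb4 on chromosome 11. They are 9 of the 49585 genes in the count tables and 9 of the 39 Hox genes of the mouse, and were picked by symbol because their counts were high in the knock-out and at or near 0 in the wild type of this same comparison. Their difference between the genotypes is therefore a description and carries no test. All 9 passed the filter on low counts, and since their wild-type counts were at or near 0 they could pass only through the knock-out libraries.

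The libraries are RNA-seq of tumoroids, cultures in Matrigel, made from adenoma cells of the intestine of C57BL/6 mice. Both genotypes carried the APC min/+ mutation, which starts intestinal adenomas, and Villin-Cre, a recombinase driven by a promoter of the intestinal epithelium. The knock-out (3 libraries) was IKKa FL/FL, with floxed copies of Chuk, the gene for the kinase IKKa of the NF-kB pathway, and the wild type (3 libraries) was IKKa +/+. The study's title places the comparison in tumour initiation, and the libraries come from cultures that were split repeatedly in medium with Noggin, R-spondin, EGF, basic FGF and a ROCK inhibitor. The labels name neither the mice nor the number of cultures, so p-values reflect no more than the variation among these 6 libraries, part of which may be technical.

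Hox genes encode transcription factors with a homeodomain and are laid out in 4 clusters, Hoxa to Hoxd. The order of the genes within a cluster mirrors the order in which they are switched on along the body axis, with low numbers towards the head and high numbers towards the tail. Their chromatin is held silent by Polycomb complexes and kept open by Trithorax and Mll complexes, and retinoic acid and Cdx factors are known inputs in the embryo. In the gut, Hox genes mark position along its length, and in the adult they are best known from mesenchyme and blood-forming cells.

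Depth ran from 20749747 to 31875723 counts per library. Chuk, the targeted gene, stood at 24.4 to 34.9 CPM (counts scaled by library size and TMM factors) in the knock-out and 95.8 to 106 CPM in the wild type, which fits the labels. The share of mitochondrial counts was 2.15% to 3.46% in the knock-out and 6.18% to 7.58% in the wild type. Xist was high only in the wild type and Ddx3y and Eif2s3y only in the knock-out, so genotype and sex of the source mice cannot be told apart. An adjusted p under 0.05 was reached by 57.4% of the 13759 genes tested (edgeR quasi-likelihood test, Benjamini-Hochberg), so that a difference between the genotypes is the usual case in these data.

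The promoter sequences of 4 Hoxa genes are shown because they span the silent and the active genes of the cluster: Hoxa5, Hoxa9 and Hoxa10 had counts in every knock-out library, while Hoxa11, the next gene after Hoxa10, had none. They are RefSeq windows of 300 bases on GRCm38.p6, 250 before and 50 after a start site, all on the minus strand, at chr6:52204538-52204837 (Hoxa5), chr6:52227321-52227620 (Hoxa9), chr6:52240805-52241104 (Hoxa10) and chr6:52245761-52246060 (Hoxa11). Capitals mark each CG dinucleotide, the site of DNA methylation.
Hoxa5: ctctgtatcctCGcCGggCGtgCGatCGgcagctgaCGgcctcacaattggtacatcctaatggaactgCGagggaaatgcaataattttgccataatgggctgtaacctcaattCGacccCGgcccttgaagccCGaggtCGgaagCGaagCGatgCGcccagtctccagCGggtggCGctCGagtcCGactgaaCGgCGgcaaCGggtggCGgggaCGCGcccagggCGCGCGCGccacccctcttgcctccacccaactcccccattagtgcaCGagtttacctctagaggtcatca
Hoxa9: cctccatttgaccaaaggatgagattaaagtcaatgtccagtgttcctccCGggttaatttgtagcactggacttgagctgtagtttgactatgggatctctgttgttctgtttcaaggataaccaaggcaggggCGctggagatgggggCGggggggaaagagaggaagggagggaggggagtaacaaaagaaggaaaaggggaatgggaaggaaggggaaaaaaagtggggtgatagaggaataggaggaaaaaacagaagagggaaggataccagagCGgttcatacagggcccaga
Hoxa10: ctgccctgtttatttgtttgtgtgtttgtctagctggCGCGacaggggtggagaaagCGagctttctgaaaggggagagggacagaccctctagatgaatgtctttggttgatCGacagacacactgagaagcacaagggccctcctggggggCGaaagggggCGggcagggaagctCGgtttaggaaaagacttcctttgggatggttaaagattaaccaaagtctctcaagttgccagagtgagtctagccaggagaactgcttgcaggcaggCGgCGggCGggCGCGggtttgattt
Hoxa11: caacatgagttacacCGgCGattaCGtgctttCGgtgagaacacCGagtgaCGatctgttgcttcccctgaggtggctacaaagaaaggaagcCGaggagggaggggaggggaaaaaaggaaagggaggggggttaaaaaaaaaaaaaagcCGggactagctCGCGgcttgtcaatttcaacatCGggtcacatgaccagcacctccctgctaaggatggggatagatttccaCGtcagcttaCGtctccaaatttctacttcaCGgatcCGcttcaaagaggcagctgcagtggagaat

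These windows hold 29 CG dinucleotides in Hoxa5, 4 in Hoxa9, 12 in Hoxa10 and 15 in Hoxa11. The downstream window of Hoxa10, at chr6:52234890-52235189 and not printed, holds 21, more than Hoxa11. The window of Hoxa13, a further Hoxa gene without a count, holds 45, above the 4 to 29 in the matched windows of the 9 genes. RefSeq windows were matched for 8 of the 9 genes, 9 windows in all since Hoxa10 has a pair. Their median was 14 CG dinucleotides, against 15 in 15 windows of 14 other Hox genes and 7 over all 32851 promoter windows. By this measure the windows of the 9 genes and of the other Hox genes lay side by side, both above the promoters at large.

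Few short motifs were shared, searched on both strands. TATAAA, the TATA box (TTTATA when read on the other strand), was in 1 of the 9 windows, the downstream window of Hoxa10, against 13.6% of all promoters. CCAAT was in 4 of 9 windows against 37.4%. TTTATG, letters found in Cdx sites, which can share letters with a TATA box, was in 1 of 9, Hoxa7, with 2 copies, against 11.9%. TGATTTAT and TGATTAAT, letters of Hox-Pbx sites, were in no member window and in 0.977% and 0.7% of all promoters. The consensus NF-kB motif was in none of the 9 windows and in 4.51% of all promoters.

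Hoxa7, Hoxa9 and Hoxa10, the tail-end genes of the group, held most of the counts. Together they made up 92.1%, 91.7% and 92.3% of the counts of the 9 genes in knock-out replicates 1, 2 and 3. The 9 genes held 15176, 13903 and 14470 counts in those libraries, and 13, 0 and 3 in wild-type replicates 1, 2 and 3. Of the 9 genes, 5 had no wild-type count at all.

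**Figure D1:**
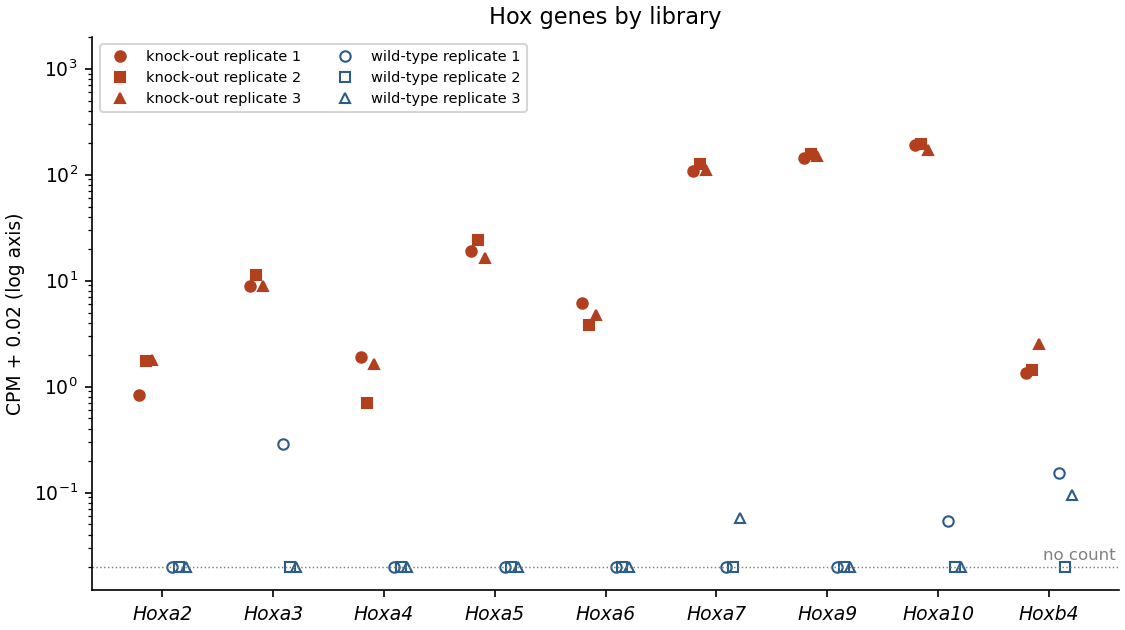
CPM of the 9 genes in each library, with 0.02 added so that libraries without a count can be drawn on the log axis. Filled symbols are the 3 knock-out and open symbols the 3 wild-type libraries, and every knock-out library lies above every wild-type library for each of the 9 genes.

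Every knock-out library stood above every wild-type library for all 9 genes. The same separation was seen in 32.7% of all genes tested and the opposite one in 30.4%, and the choice of the 9 genes used it. A narrower measure is at least 100 knock-out counts with at most 3 wild-type counts, which 7 of the 9 genes and 1.26% of all genes tested (173 genes) met. Hoxa3 and Hoxb4 missed it, with 8 and 6 wild-type counts. The choice of the 9 genes favoured this measure too, so these shares are a description and no test.

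Among the anterior genes, Hoxa2, which patterns the hindbrain and the pharyngeal arches, lay at chr6:52162417-52164831 (GRCm38, minus strand). It had 0.821, 1.72 and 1.78 CPM in knock-out replicates 1, 2 and 3 and no wild-type count. The first library was low, with a 95% Poisson interval of 0.537 to 1.20 CPM that did not reach the interval of the second (1.26 to 2.30), and intervals cover counting error only. Against a floor of 3 counts over the pooled wild-type libraries (0.0388 CPM), Hoxa2 was at least 37.2-fold higher in the knock-out.

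Hoxa3, needed for the thymus and parathyroid, has a long gene model at chr6:52169062-52213336 that encloses Hoxa4, Hoxa5 and Hoxa6. It had 8.94, 11.2 and 8.95 CPM in the knock-out, while the wild type had 8 counts in replicate 1 (0.268 CPM) and none in the others. The ratio of pooled counts was 93.2 with a 95% counting interval of 47.1 to 216. Its wild-type level rests on replicate 1: without that library Hoxa3 had no wild-type count and was at least 154-fold higher in the knock-out. Of its exon bases, 8.02% are shared with Gm28308 on the same strand, a read-through model without a count, and 25.4% with antisense genes.

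Hoxa4, which acts in the neck vertebrae, lay at chr6:52189671-52191753. Its knock-out values were 1.90, 0.674 and 1.61 CPM and it had no wild-type count, at least 36.0-fold lower than the knock-out. Here the second knock-out library was the low one, and its counting interval of 0.400 to 1.07 CPM did not meet that of the first (1.45 to 2.44).

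Of the central genes, Hoxa5, known from lung development and as a factor that counters Wnt signalling in intestinal stem cells, lay at chr6:52201754-52204587. It had 18.9, 24.3 and 16.5 CPM in the knock-out and no wild-type count, at least 513-fold higher in the knock-out. Hoxa6, a gene of the thoracic region at chr6:52206288-52208722, had 6.13, 3.78 and 4.71 CPM and no wild-type count, at least 126-fold higher. The library with the most Hoxa5 had the least Hoxa6. The 2 gene models are 1700 bases apart and share no exon base with any other gene.

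Hoxa7, which is often switched on together with Hoxa9 in leukaemias driven by Mll fusions, lay at chr6:52214491-52221854. It had 108, 127 and 110 CPM in the knock-out and a single wild-type count, in replicate 3, which gives a pooled ratio of 8850 (counting interval 1590 to 349000). Without that library the wild type had no count, which left a bound of at least 1934-fold. Of its exon bases 20.4% face the antisense gene Hoxaas3, which had 8, 1 and 7 counts in the knock-out and 0, 4 and 1 in the wild type.

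Hoxa9, a regulator of blood stem cells and of the tail end of the axis, lay at chr6:52223100-52231089 and had 143, 156 and 149 CPM in the knock-out and no wild-type count. Hoxa10, a gene of the uterus and the lumbar vertebrae at chr6:52231197-52240854, had 191, 195 and 172 CPM. Its wild-type value was 1 count, in replicate 1, and without that library it was at least 2945-fold higher in the knock-out. The 2 models lie 107 bases apart, and a transcript that runs from one into the other cannot be told apart in counts per gene.

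Hoxb4, known for expanding blood stem cells, is the sole gene of the group outside the Hoxa cluster, at chr11:96318267-96321638 on the plus strand. It had 1.33, 1.42 and 2.52 CPM in the knock-out and 0.134, 0 and 0.0743 CPM in the wild type. The groups did not overlap, and the ratio of 22.8 (counting interval 10.3 to 63.1) was the lowest of the 4 that could be formed. Without wild-type replicate 1 the ratio was 42.1, on 2 wild-type counts (interval 11.4 to 350).

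Scatter between the 3 knock-out libraries was larger in the low genes. The coefficient of variation of CPM was 4.45% for Hoxa9, 6.67% for Hoxa10 and 8.88% for Hoxa7, against a counting error of 1.5%, 1.35% and 1.71%. It was 37.3% for Hoxa2, 45.9% for Hoxa4 and 37.7% for Hoxb4, whose counting errors were 15.4%, 15.3% and 13.8%. In all 9 genes the scatter was thus larger than counting alone gives.

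Knock-out replicate 2 did not shift the genes as a block. It had the highest CPM of the 3 libraries for Hoxa3, Hoxa5, Hoxa7, Hoxa9 and Hoxa10, the lowest for Hoxa4 and Hoxa6, and the middle value for Hoxa2 and Hoxb4. This library also had the highest mitochondrial share of the knock-out, 3.46% against 2.15% and 2.22%, and the part of that in these values was not tested.

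Levels can be set beside each other only per length of transcript. Per kb of exon in the gene model, Hoxa10 had 56.8 ± 3.79 CPM per kb in the knock-out (SD, n = 3), above 93.8% of all genes tested. Hoxa7 followed with 40.0 ± 3.55, Hoxa9 with 26.8 ± 1.19, Hoxa5 with 10.6 ± 2.13 and Hoxa6 with 5.58 ± 1.35. Neighbours in this order did not overlap between libraries from Hoxa10 down to Hoxa6.

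The anterior genes were far lower. Hoxa3 had 1.61 ± 0.220 CPM per kb and overlapped with none of the others on this length. Hoxa4 (0.875 ± 0.401), Hoxa2 (0.811 ± 0.302) and Hoxb4 (0.684 ± 0.258) overlapped in their libraries and could not be ordered, and Hoxb4 lay above 17.9% of all genes tested. With the longest coding transcript in place of all exons the order was the same, with Hoxa10 at 72.4 and Hoxa3 at 3.75 CPM per kb, but Hoxa3 (3.45 to 4.34) then overlapped Hoxa6 (4.33 to 7.01) between libraries.

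**Figure D2:**
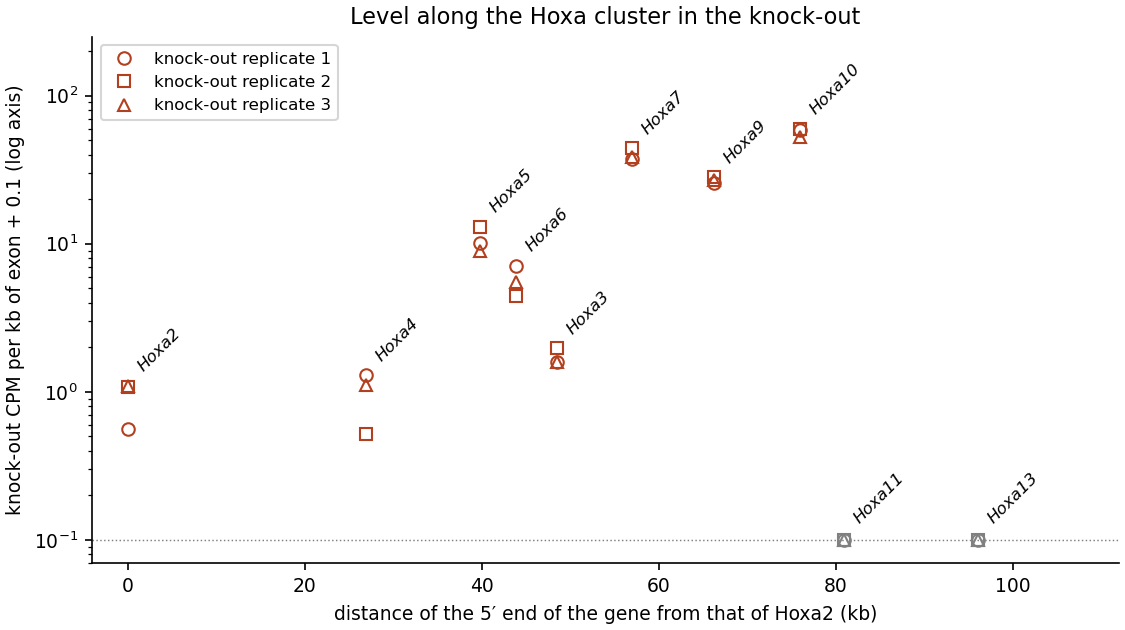
CPM per kb of exon (0.1 added, log axis) in the 3 knock-out libraries for Hoxa2 to Hoxa13, placed by the distance of their 5′ end from that of Hoxa2 in kb. Among the 8 Hoxa members the level is lowest in Hoxa2 and Hoxa4 and highest in Hoxa10, with lower values in between at Hoxa6, Hoxa3 and Hoxa9, and is 0 in Hoxa11 and Hoxa13, and Hoxa3 stands to the right of Hoxa6 since its model starts there.

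Along the cluster, which spans 98.5 kb from Hoxa2 to Hoxa13, the level was higher towards Hoxa10 and ended after it. The climb was not strict, since Hoxa5 stood above Hoxa6 and Hoxa7 above Hoxa9, and Hoxa3, whose model starts between those of Hoxa6 and Hoxa7, stood below both. Hoxa11, which acts in limb and kidney, begins 1251 bases beyond the Hoxa10 model, and it and Hoxa13, a gene of the hindgut and the digits, had no count in any of the 6 libraries. A count of 0 over the pooled knock-out libraries allows up to 0.0336 CPM (3 counts), against 186 ± 12.4 CPM (SD, n = 3) for Hoxa10.

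Outside the Hoxa cluster Hoxb4 stood alone. Of the 9 other Hoxb genes, 6 had no count in any library, and so had all 9 Hoxc and all 9 Hoxd genes. Hoxb3, the neighbour of Hoxb4, had 5, 1 and 0 counts in the knock-out and 1, 0 and 0 in the wild type, Hoxb9 had 6 counts in knock-out replicate 3 alone, and Hoxb2 had 2 counts, both in the wild type. Hoxb5, on the other side of Hoxb4, had none. The 9 genes held 99.7% of all Hox counts in each knock-out library.

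**Figure D3:**
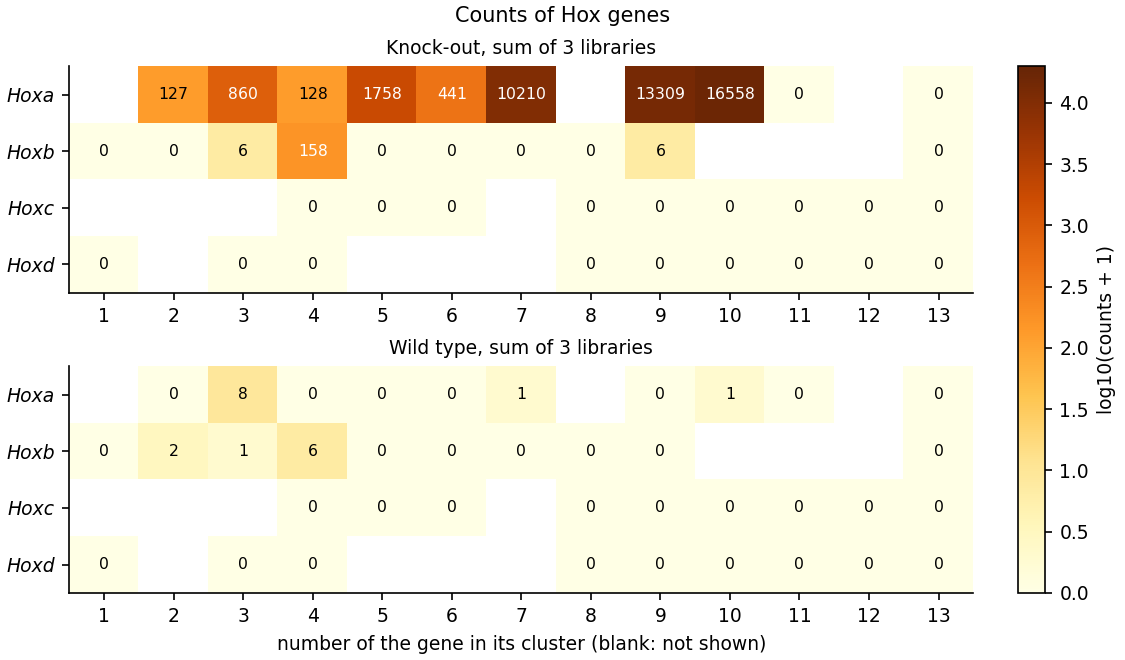
Counts of Hox genes summed over the 3 knock-out libraries (top) and the 3 wild-type libraries (bottom), by cluster (rows) and gene number (columns), shaded by log10(counts + 1). The knock-out counts fill Hoxa2 to Hoxa10 and Hoxb4, and no gene shown has 10 or more counts in the wild type.

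The non-coding RNAs of the clusters had few counts or none. Of 15 matched, 10 had no count in any library, among them Hottip and the microRNA gene Mir196b. Several of these, such as Hotair in the Hoxc cluster and Hottip beyond Hoxa13, lie beside Hox genes that had no count either. The microRNA genes in the list have models of 68 to 110 bases, which these polyA-selected libraries may not show. Mir196b, with 85 bases, lies wholly in exon bases of Hoxa9 on the same strand. A count of 0 in these genes can therefore not be read as a level. Hoxaas2, antisense to Hoxa3, had 2, 1 and 6 counts in the knock-out and none in the wild type. Only Hotairm1 passed the filter, with 0.548 ± 0.0884 CPM in the knock-out against 0.411 ± 0.249 CPM (SD, n = 3 each; edgeR adjusted p 0.483). Thus 0 of 1 tested passed the threshold with edgeR, with DESeq2 or with limma, and its unadjusted p was 0.399 (edgeR).

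Genes on both sides of the Hoxa cluster differed between the genotypes in both directions. Of the 10 nearest protein-coding genes on each side, 15 of 20 were tested, 6 were higher and 7 lower in the knock-out (edgeR, Benjamini-Hochberg), a share of 86.7% against the background of 57.4%. Their median log2 fold change was -0.30, beside 0.00 over all genes. Skap2, an adaptor of Src kinases 143 kb outside the cluster on the Hoxa2 side, had a log2 fold change of -0.27 ± 0.08 (SE; edgeR adjusted p 0.0126), and missed the threshold without knock-out replicate 1 (edgeR adjusted p 0.0632) or wild-type replicate 1 (0.0554).

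On the other side, Evx1, a homeobox gene 52.6 kb beyond Hoxa13, had no count in the knock-out and 5, 0 and 3 in the wild type and was not tested. Hibadh, an enzyme of valine breakdown 285 kb beyond Hoxa13, fell by 0.38 ± 0.08 on the log2 scale (SE; edgeR adjusted p 0.00165), and Tax1bp1, an autophagy receptor, fell by 0.30 ± 0.08 (edgeR adjusted p 0.00566). On the Hoxa2 side Cbx3, a heterochromatin protein, fell by 0.52 ± 0.14 (edgeR adjusted p 0.00743) and Hnrnpa2b1, an RNA-binding protein, by 0.44 ± 0.07 (edgeR adjusted p 0.000175). Snx10, a sorting protein of endosomes, rose by 0.27 ± 0.09 (edgeR adjusted p 0.0185), but not without knock-out replicate 3 or wild-type replicate 1 or 3 (edgeR adjusted p 0.0551 to 0.0897). Further out on the Hoxa2 side, 697 kb away, Nfe2l3 rose by 1.98 ± 0.16 (edgeR adjusted p 4.13e-07). On the Hoxa13 side Chn2, a regulator of Rac, rose by 0.75 ± 0.11 (edgeR adjusted p 8.03e-05). Further out on that side, Wipf3 fell by 4.57 ± 0.27 on the log2 scale, from 22.4 to 0.933 CPM (edgeR adjusted p 1.65e-09), and Prr15 fell by 2.39 ± 0.29 (edgeR adjusted p 9.05e-06). Creb5 rose by 1.11 ± 0.40 (edgeR adjusted p 0.0261), but not without knock-out replicate 1 or wild-type replicate 1 or 2 (edgeR adjusted p 0.0538 to 0.132).

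**Figure D4:**
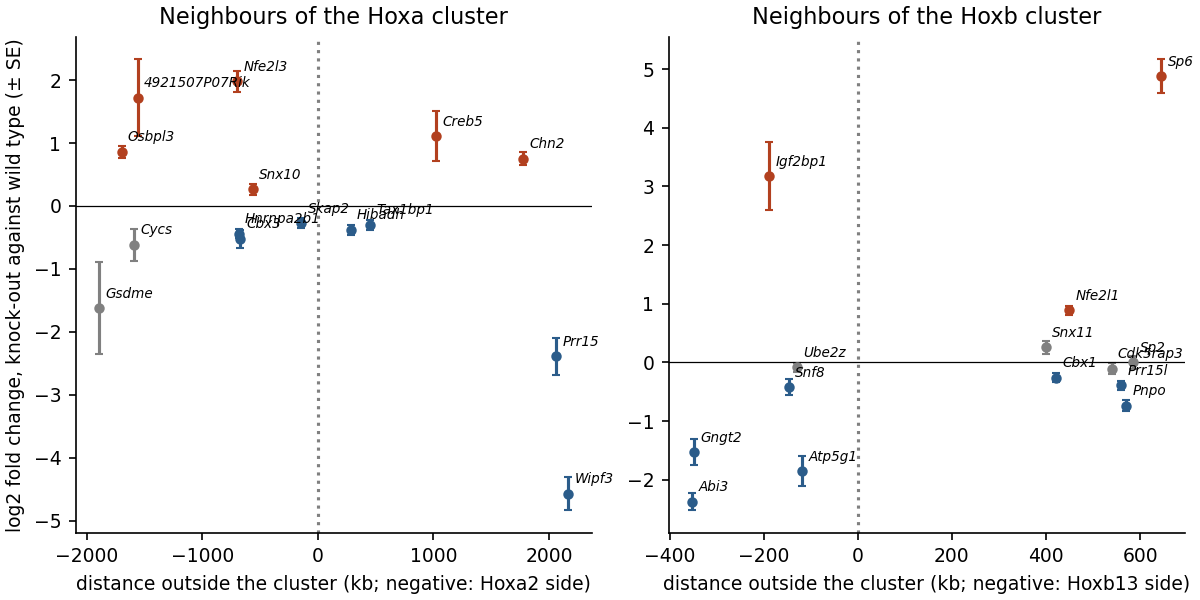
Log2 fold change (± SE) of the tested neighbours against their distance in kb outside the Hoxa (left) and Hoxb (right) cluster, for those with counts in both genotypes. Red genes were higher and blue genes lower in the knock-out, grey genes did not pass the threshold, and Skap2 and Hibadh, the nearest tested genes on either side of the Hoxa cluster, lie at -0.27 and -0.38.

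Partners of the Hox proteins were present in both genotypes. Of 9 TALE homeobox cofactors, the Pbx, Meis and Pknox proteins that bind DNA together with Hox proteins, 8 were tested, 4 were higher and 1 lower in the knock-out, a share of 62.5% against 57.4% of all genes, of which 30.4% were higher and 27% lower. Pbx4 rose from 4.13 ± 0.635 to 9.25 ± 1.20 CPM (SD, n = 3 each; edgeR adjusted p 0.000319) and Meis3 from 3.40 ± 1.13 to 6.91 ± 0.178 (edgeR adjusted p 0.00281). Pknox1 fell by 0.43 ± 0.10 on the log2 scale (SE; edgeR adjusted p 0.00335).

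Meis1, the partner best known beside Hoxa9 in leukaemia, had 3.53 ± 0.313 CPM in the knock-out against 2.30 ± 0.125 CPM in the wild type (SD, n = 3 each; edgeR adjusted p 0.0454). That call did not hold up: leaving out any of the 6 libraries gave an edgeR adjusted p of 0.0547 to 0.138.

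Cdx genes, relatives of the Hox genes that set the intestinal identity of the epithelium, went the other way. Cdx2 fell by 3.23 ± 0.09 on the log2 scale (SE; edgeR adjusted p 4.22e-11), from 193 ± 10.6 to 20.6 ± 1.30 CPM (SD, n = 3 each). Cdx1 had 197, 131 and 167 counts in the wild type and none in the knock-out (edgeR adjusted p 7.11e-07). Pdx1, a factor of the duodenum and pancreas, had 40.9 ± 2.78 CPM in the wild type and 1 count in the knock-out (edgeR adjusted p 3.80e-10). All 3 tested genes of the 6 listed fell, beside 27% of all genes.

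Genes that carry and read the retinoic acid signal changed in both directions. Of 18 listed, 12 were tested, 7 were higher and 3 lower in the knock-out, a share of 83.3% against 57.4%, and their median log2 fold change was 0.74. Stra6, the receptor that takes up retinol, rose from 1.79 ± 0.541 to 304 ± 34.3 CPM (SD, n = 3 each; edgeR adjusted p 7.41e-12). The receptor Rarg rose from 18.2 ± 1.70 to 95.4 ± 2.73 CPM (edgeR adjusted p 1.03e-09) and Rara from 20.3 ± 0.881 to 46.3 ± 1.24 CPM (edgeR adjusted p 5.45e-07). The receptor Rarb, itself a target of the pathway, had 2 counts in the knock-out against 122 in the wild type (edgeR adjusted p 0.000162). Cyp26b1, of the same list, went the other way, with 62 counts in the knock-out against 2 in the wild type (edgeR adjusted p 0.000851).

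Polycomb genes changed in both directions. All 33 were tested, 11 were higher and 13 lower in the knock-out, a share of 72.7% against 57.4%, with a median log2 fold change of -0.10. Ezh2, the methyltransferase that writes the silencing mark on Hox chromatin, fell by 0.55 ± 0.08 on the log2 scale (SE; edgeR adjusted p 6.62e-05), with 116 ± 5.27 CPM left. The subunits Phf19 and Jarid2 fell by 2.28 ± 0.18 and 1.06 ± 0.10 (edgeR adjusted p 1.89e-07 and 2.89e-06). Of the complex that reads the mark, Cbx7 fell by 1.98 ± 0.12 (edgeR adjusted p 3.32e-08) while Phc2 rose by 1.27 ± 0.08 (edgeR adjusted p 6.54e-08).

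Trithorax and Mll complex genes also changed in both directions. Of 28 listed, 27 were tested, 3 were higher and 6 lower in the knock-out, 33.3% against 57.4%. Kmt2a, the Mll methyltransferase that keeps Hoxa genes active, had 115 ± 27.6 CPM against 100.1 ± 21.1 (SD, n = 3 each; edgeR adjusted p 0.370). Aff1, a frequent fusion partner of Mll, rose by 2.34 ± 0.15 on the log2 scale (SE; edgeR adjusted p 7.56e-08) and Aff4 by 1.27 ± 0.19 (edgeR adjusted p 0.000128). Ash2l, a core subunit, fell by 0.50 ± 0.07 (edgeR adjusted p 0.000118) and Kdm6a, an X-linked demethylase that removes the Polycomb mark, by 1.13 ± 0.13 (edgeR adjusted p 1.00e-05). For this X-linked gene, genotype and sex of the source mice cannot be told apart.

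The count of Trithorax and Mll genes past the threshold rests on knock-out replicate 2. Without it 17 of 27 genes passed, 9 higher and 8 lower, and Kmt2a was among them (edgeR adjusted p 0.0152). Of all genes, 8899 of 14459 passed without this library, a share close to that of the list, against 7896 of 13759 with all libraries.

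**Figure D5:**
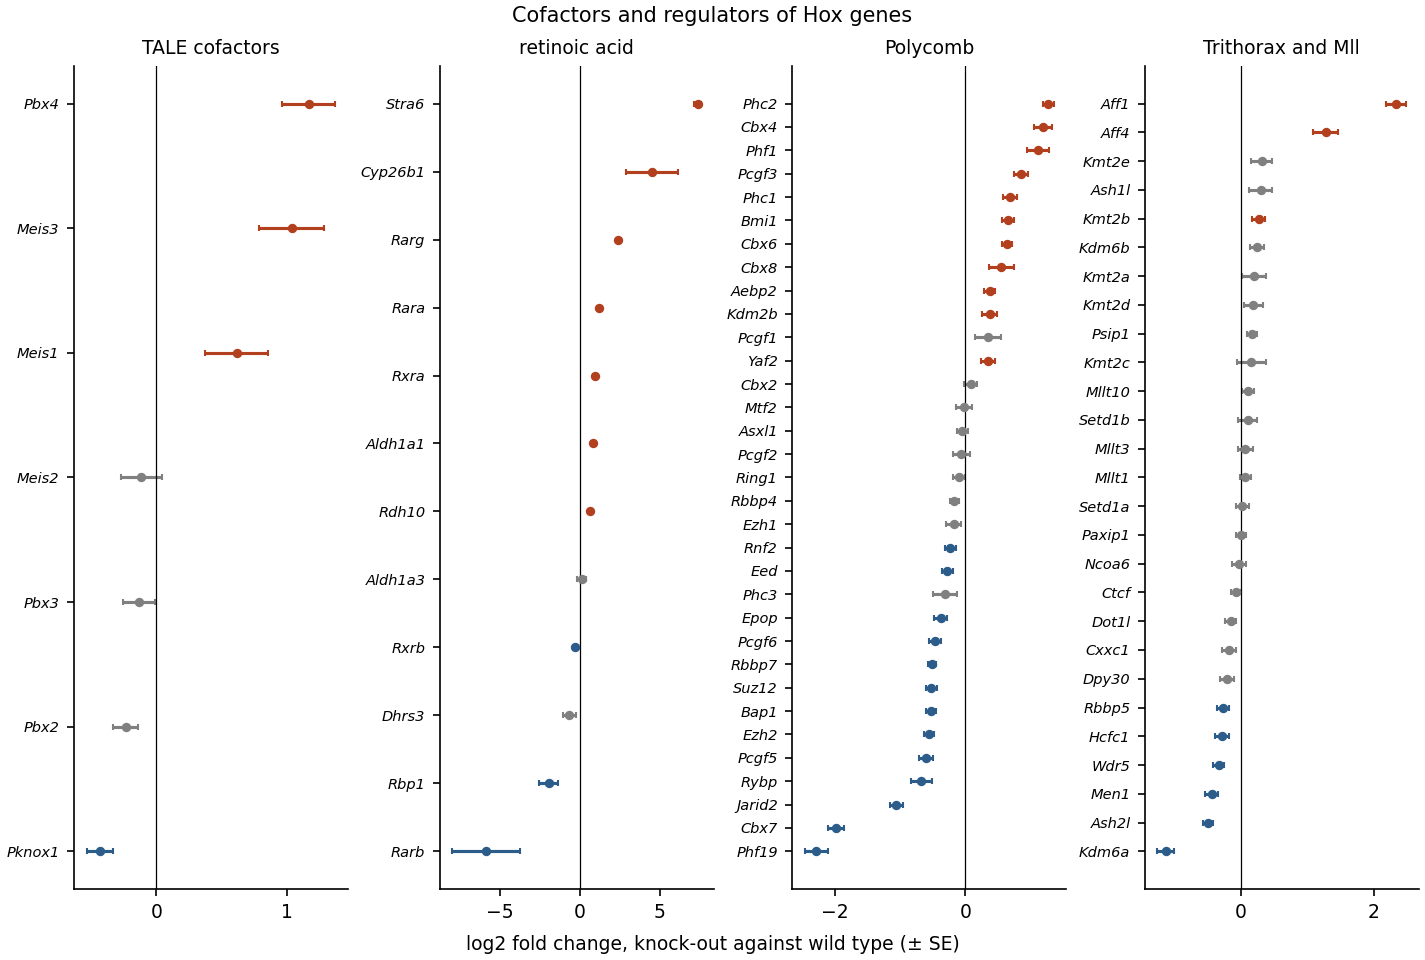
Log2 fold change (± SE) of tested TALE cofactors, retinoic acid, Polycomb and Trithorax and Mll genes with counts in both genotypes, each panel on its own axis. Red genes were higher and blue genes lower in the knock-out and grey genes did not pass the threshold, and Stra6 has the largest rise, from 1.79 to 304 CPM.

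Markers of mesenchyme, which normally holds Hox genes, were mostly without counts in these cultures. Of 15 fibroblast and mesenchyme markers, 11 had no count in any library, among them Pdgfrb, Col3a1, Dcn, Lum and Thy1. The summed level of the list was 0.549 to 1.05 CPM in the knock-out and 0.369 to 0.483 CPM in the wild type. The 9 Hox genes summed to 467 to 521 CPM in the knock-out, mostly from Hoxa7, Hoxa9 and Hoxa10. Hoxa2, Hoxa4 and Hoxb4 had knock-out means of only 1.44, 1.4 and 1.76 CPM, not far from the sum of this marker list. From which cells the Hox counts came was not tested. Col1a1 alone of the list passed the test, with 0.666 ± 0.185 against 0.0248 ± 0.0429 CPM (SD, n = 3 each; edgeR adjusted p 0.00215).

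Of 10 blood cell markers, the summed level was 11.3 to 12 CPM in the knock-out and 4.72 to 8.48 CPM in the wild type. The knock-out sum was above the mean levels of Hoxa2, Hoxa3, Hoxa4, Hoxa6 and Hoxb4. Most of the knock-out sum was Csf1r, with 10.9 ± 0.360 CPM (SD, n = 3). In the wild type Csf1r had 0.605 ± 0.724 CPM (SD, n = 3), and it was called higher in the knock-out (edgeR adjusted p 2.88e-06). Most of the wild-type sum was Kit, with 5.09 ± 2.37 CPM (SD, n = 3) against 1 count in the knock-out (edgeR adjusted p 1.91e-05), while Adgre1 and Cd3e had no count in any library and Lyz2 and Spi1 none in the knock-out. Ptprc, which all white blood cells carry, had 0.434 ± 0.0994 CPM in the knock-out. In the wild type Ptprc had 0.0248 ± 0.0429 CPM (SD, n = 3 each, edgeR adjusted p 0.00794). Smooth muscle markers summed to 0.194 to 0.474 CPM in the knock-out against 9.25 to 18.5 CPM, and endothelial markers to 0.862 to 1.58 CPM against 17.6 to 23.3 CPM, but few genes carried these sums. Acta2 made up most of the wild-type smooth muscle sum, with 12.5 ± 4.73 CPM (SD, n = 3), while Tagln had 11 counts over the wild-type libraries against 10 over the knock-out libraries. Tek and Vwf made up most of the wild-type endothelial sum, while Tie1 had 27 counts over the knock-out libraries and none over the others. Enteric neuron and glia markers summed to 10.6 to 11.4 CPM against 1.21 to 4.12 CPM, mostly from Ret, and Sox10 and Elavl4 had no count in any library. In bulk RNA, more cells that express a gene and more RNA of it per cell cannot be told apart.

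Epithelial markers summed to 10710 to 12560 CPM in the knock-out and 8389 to 9034 CPM in the wild type, but 5 of the 9 were lower and 3 higher in the knock-out. Krt8, Krt18 and Krt19 were the 3 that rose, while Epcam fell from 915 ± 30.6 to 412 ± 12.9 CPM (SD, n = 3 each; edgeR adjusted p 3.16e-08) and Vil1 from 428 ± 16.1 to 232 ± 16.2 CPM (edgeR adjusted p 8.46e-07). Markers of gut regions also differed between the genotypes, in both directions, and their part in the Hox levels was not tested. Of 9 stomach markers the sum was 76.8 to 114 CPM in the knock-out and 2.94 to 7.27 CPM in the wild type, nearly all of the knock-out sum from Tff1. Gkn3 went the other way, with 0.0108 CPM in the knock-out against 4.18 ± 1.81 CPM (SD, n = 3; edgeR adjusted p 1.97e-05), and Sox2, Gkn2, Muc6 and Barx1 had no count in any library. The 6 ileum markers summed to 7.17 to 8.24 CPM against 20.8 to 24.9 CPM, with Slc10a2 lower but Osr2 higher in the knock-out (2.33 ± 0.175 against 0.322 ± 0.238 CPM, SD, n = 3 each; edgeR adjusted p 0.00024). The 9 colon markers summed to 5.84 to 7.23 CPM against 18.4 to 19.8 CPM, where 3 of 4 tested were lower and none higher. The 6 duodenum and jejunum markers summed to 525 to 768 CPM against 329 to 337 CPM, with Onecut2 higher and Gata4 and Pdx1 lower in the knock-out.

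Genes with the pattern most like that of Hoxa9 over the 6 libraries were found by the Euclidean distance of log2(CPM + 0.5). The nearest was Mucl3 at a distance of 0.425, with 155, 157 and 161 CPM in the knock-out and 0.101, 0 and 0.112 CPM in the wild type. Ildr2 (0.817), Fbln2 (0.949) and Ppp2r2c (0.996) came next. For Hoxb4 the nearest were Itga7 (0.351), Lce6a (0.464), Slc6a17 (0.486), Syt17 (0.490) and Drd3 (0.527), all of them genes with few counts. Of these genes, Fbln2 is the one that shares chromosome 6 with the Hoxa cluster.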

How the data were processed

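RNA from 3 knock-out and 3 wild-type tumoroid libraries was sequenced. Per the labels' protocols, total RNA went into stranded, polyA-selected libraries, with alignment by STAR on GRCm38 per the submitters' processing notes. Not given in the sources used here are the STAR version, the counter, its strand setting and the annotation. The authors deposited unnormalized whole-number counts for each Ensembl gene, 20749747 to 31875723 per library. Symbols and gene models came from GENCODE M21 (GRCm38), which named 49326 of 49585 identifiers, and promoters from RefSeq (GRCm38.p6).

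Counts were tested with edgeR 4.0.16 in R 4.3.3 (TMM scaling, filterByExpr with minimum count 10 and total 15, quasi-likelihood test, genotype as the only term), with Benjamini-Hochberg adjustment over 13759 genes and a threshold of 0.05. Of those, 4182 were higher and 3714 lower in the knock-out (3851 and 4131 with upper quartile scaling). On simulated counts with 200 changed genes, 0% of 1.25-fold, 60% of 1.5-fold and 96% of 4-fold changes were recovered. That run covered 13493 genes, and 9 of 126 calls were false. Far more genes were called in the real data, so these rates need not hold there. Where a genotype had no count, folds are bounds from 3 counts over its pooled libraries, and ratios carry exact 95% intervals.

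The members and the gene lists were chosen with earlier results of these data known. The genes named are the 9 members, other Hox genes past the filter, the 4 nearest tested neighbours on each side, up to 4 genes per list with the smallest p past the threshold, Ezh2, Kmt2a, Meis1, Cdx1, Cdx2 and Chuk, and the 5 genes nearest in pattern to Hoxa9 and to Hoxb4. Other genes, such as Hoxa11, Hotairm1, Evx1, Rarb and single markers, were named after their values were seen. Some items that the rule selects are not reported here.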

Additional observations from a re-analysis of the deposited data

How the results depend on the processing

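The 9 members kept every knock-out library above every wild-type library under each scaling, filter and left-out library tried, except that Hoxa2 and Hoxa4 fell below a filter of 1 CPM in 3 libraries, which left 7. A filter or a left-out library cannot undo this separation, and the choice of the members used it. It is therefore a description and no check of the result. No gene named by the rule changed direction under any alternative. The direction of genes named after their values were seen was not checked in this way. The settings were other scalings, no filter, DESeq2, limma voom, protein-coding genes only, an adjusted p of 0.01 and each library left out in turn, and 2 chosen after seeing the data, the legacy edgeR fit and transcript length per kb. For the members' fitted or estimated log2 fold changes, 116 values moved by less than the spread between libraries and 26 by more. For the other genes named by the rule, 847 values kept their side of the threshold, 33 lost it and 2 gained it. Leaving out 1 library in turn gave 6 to 17 Trithorax and Mll genes against 9, and the cause was not tested. The 17 came without knock-out replicate 2, where 8899 of 14459 genes passed in all. Same-numbered libraries did not deviate together (correlations of 0.108, -0.11 and -0.19), and those with different numbers gave -0.177 to 0.269. The check thus showed no pairing by number, but with 3 libraries per genotype it cannot exclude one. With the replicate block 7432 genes were called against 7896, with 13 neighbours of the Hoxa cluster, 4 TALE cofactors, 3 Cdx and ParaHox genes, 23 Polycomb, 8 Trithorax and Mll and 10 retinoic acid genes.

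Depth limits the low genes: 3 counts over the pooled wild-type libraries are 0.0388 CPM, so a lower wild-type level of a Hox gene was not detectable. The comparison of protein sequences was not run.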

Other observations

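Beside the Hoxb cluster, Ttll6, a tubulin-modifying enzyme 28.9 kb beyond Hoxb13, had 59, 45 and 79 counts in the knock-out and none in the wild type, at least 52.5-fold higher (edgeR adjusted p 7.47e-05). This put it at 2.03 ± 0.457 CPM (SD, n = 3) in the knock-out, while Hoxb13 itself had no count in any library. Of 16 tested neighbours of the Hoxb cluster, 4 were higher and 8 lower, a share of 75% beside 57.4% of all genes. Atp5g1, a subunit of the mitochondrial ATP synthase, fell by 1.85 ± 0.26 on the log2 scale (SE; edgeR adjusted p 3.83e-05), and Ube2z, a ubiquitin-conjugating enzyme, had 178 CPM against 188 CPM (edgeR adjusted p 0.361). On the Hoxb1 side Nfe2l1, a transcription factor of proteasome genes, rose by 0.89 ± 0.08 (edgeR adjusted p 8.64e-07).

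Homeobox genes linked to the Hox clusters were low or without counts. Of 11 listed, 5 had no count in any library and 2 were tested. Dlx3, a gene of skin and placenta on the chromosome of the Hoxb cluster, had 16, 13 and 41 counts in the knock-out and none in the wild type (edgeR adjusted p 0.00307). Dlx4, next to it, had 7, 8 and 21 counts against 1, 0 and 1 and was not tested. Mnx1 was lower in the knock-out, with 0, 0 and 2 counts against 23, 16 and 13 (edgeR adjusted p 0.00134).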
